A study of Homo sapiens with 2 samples.

Results

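The genes described here are 41 members of the TGF-β and BMP signalling pathway and of the mesenchymal gene programme that this pathway drives. The data are the places on their transcripts that were called as contacts of RBMS3. RBMS3 is an RNA-binding protein that has been linked to the mesenchymal state of breast cancer cells, and the genes were listed for that link, with earlier results of these data known, though no value in the data enters the rule. A gene counted as bound when a site of the list lay inside it on its own strand (GENCODE release 44, hg38), and as unbound otherwise. By this rule 26 of the 41 genes were bound and 15 were not. They held 116 of the 27706 sites.

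The sites came from MDA-MB-231, an established human line of triple-negative breast cancer with a mesenchymal appearance, stably transduced with a lentiviral vector, named with EF1a, that carries RBMS3 with a 2xFLAG tag at its N terminus. The sites are therefore those of added, tagged RBMS3 and not of the cell's own protein. The cells were exposed to ultraviolet light, which links protein to RNA, and RNA bound to the tagged protein was isolated with FLAG beads, tailed with A, captured by oligo(dT) and sequenced (CLIP-seq). There was 1 group of 2 biological replicates, both with the tagged protein, and the labels of the second replicate give MDA-MB-231 in its title but another line number elsewhere. The replicates were pooled before sites were called, so no value has an error between replicates, no test between conditions could be made, and no library without the tag or input library was analysed here.

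TGF-β, activin and BMP ligands bind pairs of type II and type I receptor kinases at the cell surface. The type I receptor phosphorylates SMAD2 and SMAD3, or SMAD1 and SMAD5 in the BMP branch, which join SMAD4 and enter the nucleus. Inhibitory SMADs, the ubiquitin ligases SMURF1 and SMURF2 and the corepressors SKI and SKIL restrain the signal. Its targets include the ID genes and, in cells that lose epithelial character, transcription factors of the ZEB, SNAI and TWIST families.

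A site is a base at which some tags, the unique sequenced RNA fragments, lack that base, which CLIP analysis reads as the place where a remnant of crosslinked protein was bypassed by the reverse transcriptase. Each site has a number of covering tags and a number of tags with the deletion, here called deletions. Below are 30 bases around the strongest 3′UTR site, by deletions, of each of 8 genes, 5′ to 3′ on the transcript strand and read from hg38. The deleted base is the 15th letter. These 8 genes are shown because their strongest sites carried the most deletions of the 41. Capitals mark a poly(A) signal (AATAAA or ATTAAA, the hexamers that direct cleavage at mRNA ends) or, in SKI, a match to the AUA pattern of 7 nt that the study assigned to RBMS3 (ATA, preceded by any base but C and then a weak base, and followed by a weak base and a final A, where weak means A or T).

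TGFBR2 (chr3:30694058-30694087, plus strand): acataAATAAAatgtttattagattgaata
BMPR2 (chr2:202567710-202567739, plus strand): ggtgcgttattccgtttATTAAAgatcata
SKI (chr1:2310078-2310107, plus strand): tgtatgctttcttgtTTATAAAtgcctgat
LTBP1 (chr2:33399335-33399364, plus strand): taAATAAAtcaccatttttgtagaaaaaat
SMURF2 (chr17:64545373-64545402, minus strand): ctgtacttgctctttgtaaaaaaaAATAAA
SMAD5 (chr5:136182694-136182723, plus strand): ttgtttgctaattctttactttAATAAAcc
ID1 (chr20:31606463-31606492, plus strand): gttctgtggggctgtttttttgttATTAAA
TGFB2 (chr1:218443941-218443970, plus strand): acgatgtatgtctgtttttgtggtgctcta

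In all 8 stretches the deleted base was a T (U in the RNA) inside a run of at least 3 T. A deletion inside such a run cannot be placed exactly, and the list puts it at the lowest coordinate. The LTBP1 stretch runs past an annotated end that lies 8 nt after the deleted base.

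Receptors, SMADs and their regulators made up most of the bound genes, but they are also most of the listed genes. Of 10 receptor genes 7 were bound, of 7 SMAD genes 5, of 4 SMAD regulators 4 and of 3 ID genes 3. Of 5 ligand and latent-complex genes 3 were bound, and of 3 genes for cadherins and an induced matrix protein 2. Among all protein-coding genes 37.6% were bound. With 3 to 10 genes per role, the 95% Wilson intervals of the shares with a 3′UTR site are wide. They run from 39.7 to 89.2% for receptors, 35.9 to 91.8% for SMAD genes and 11.8 to 76.9% for ligand and latent-complex genes. The intervals of all roles overlap, so these counts do not set the roles apart. Of 9 transcription factor genes, ZEB1 and SNAI2 were bound (22.2%), and both had a 3′UTR site, against 31.8% of all protein-coding genes with one, so with 9 genes this share is not set apart from the background. The unbound genes were TGFB1, INHBA, ACVR2A, ACVR2B, BAMBI, SMAD6, SMAD7, ZEB2, SNAI1, TWIST1, TWIST2, PRRX1, FOXC2, TCF4 and CDH2. RNA levels were not measured in these data, so a transcript that RBMS3 did not contact and a transcript that was scarce or not made cannot be told apart.

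The share of bound genes was 63.4% (26 of 41), compared with 37.6% of 20046 annotated protein-coding genes. In 3′UTRs, 25 of the 41 genes had a site (61.0%), compared with 31.8% of protein-coding genes, and 12 had at least 3 sites there (29.3%), compared with 13.9%. The median annotated 3′UTR, all transcripts merged, was 3487 nt in the 25 genes with a 3′UTR site and 2480 nt in the other 16, against 2680 nt and 1378 nt over protein-coding genes with and without a site. The 20046 genes are all annotated ones, whether or not their RNA was present in this line. The part of RNA presence and of 3′UTR length in these shares was not tested. Among genes with a 3′UTR site, the median number of such sites was 2 both for the listed genes and for all 6372 protein-coding genes, and the median of the most deletions at a single site was 96 against 82.

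**Figure D1:**
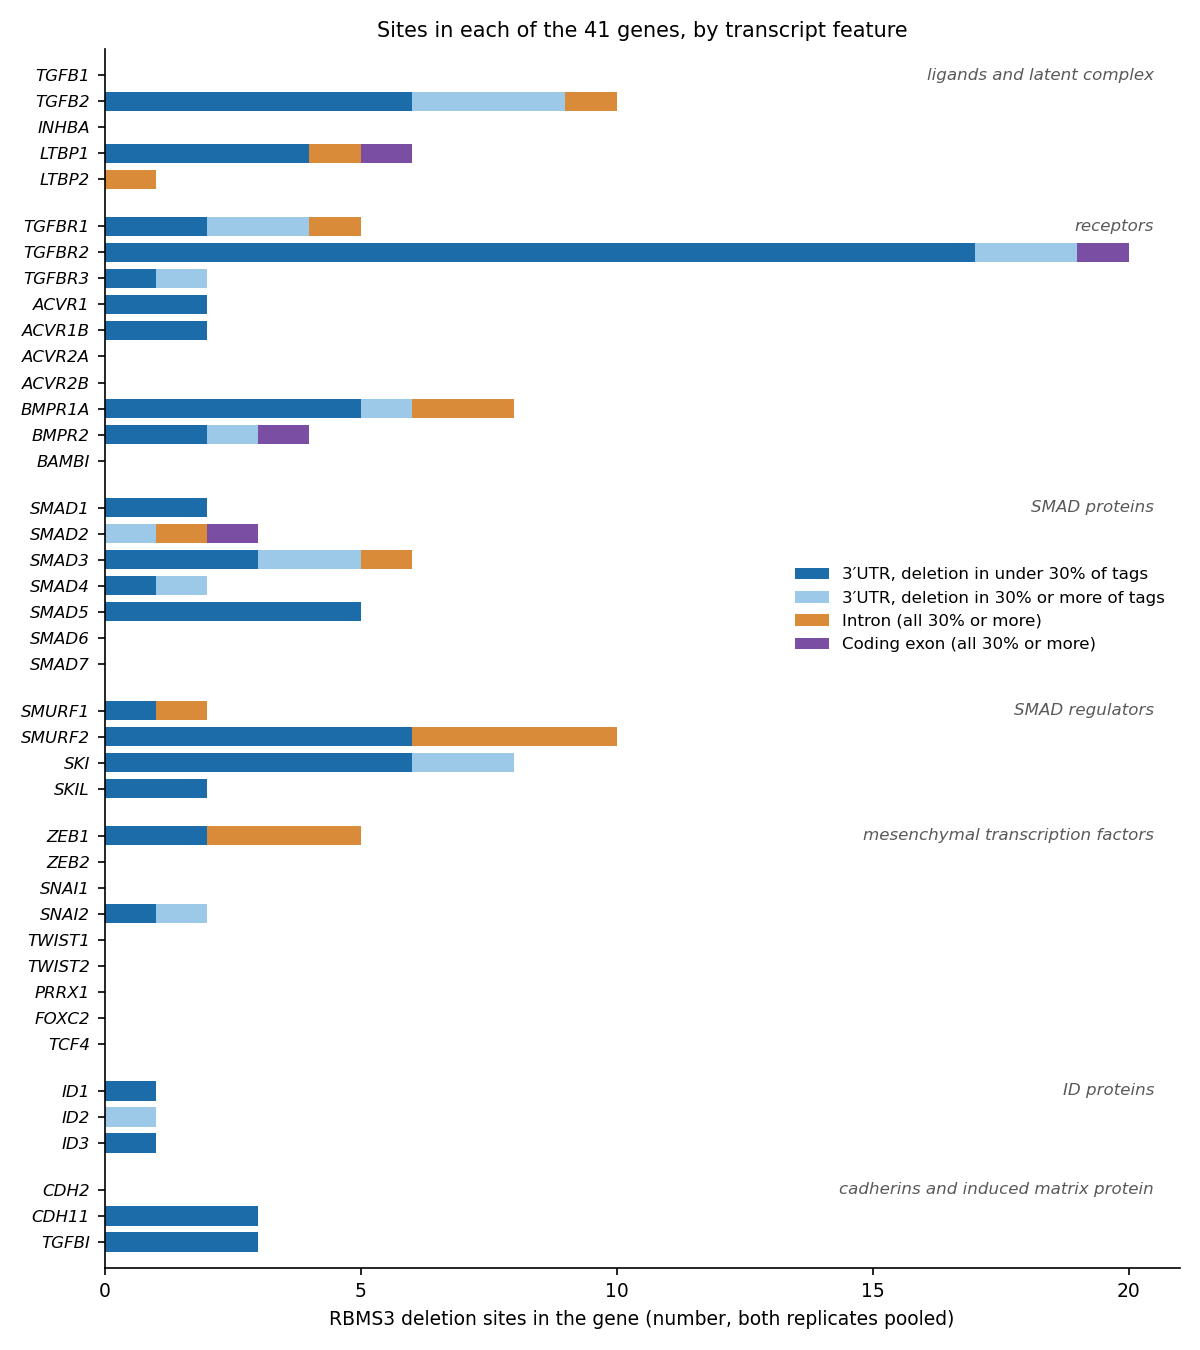
Number of RBMS3 sites (x axis) in each of the 41 genes (y axis), grouped by role, with colours for 3′UTR sites of low and high deletion percentage, introns and coding exons. TGFBR2 held 20 sites, TGFB2 and SMURF2 held 10 each, and 15 genes held none.

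The 116 sites were split at 30% of tags with the deletion, and the classes differed in coverage and in place. Below 30% the whole list has no site with fewer than 32 deletions or 110 tags. A site with few tags could therefore only be in the high class. At 78 sites (67.2%) fewer than 30% of the tags carried the deletion, and all 78 were in 3′UTRs. Their median coverage was 6018 tags (lowest 144, highest 46421). The other 38 sites had a median of 21 tags (lowest 7, highest 127), and 18 of them were in 3′UTRs, 16 in introns and 4 in coding exons. No site of the 41 genes lay between 22.2 and 30.7%, but the whole list had sites up to 29.9% and from 30.1%. In the whole list 95.2% of the low-percentage sites and 33.1% of the others were in 3′UTRs.

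All 20 sites in introns and coding exons were therefore of the high kind, and at 12 of them every tag carried the deletion. They had 7 to 77 tags each, fewer than any low-percentage site of the list, so they could not have been in the low class. LTBP2, a protein related to the latent TGF-β binding proteins, had such a site only, with 38 of 38 tags in an intron (chromosome 14, position 74607456). SMAD2 had 3 sites of this kind, 42 of 77 tags in an intron, 9 of 9 in a coding exon and 24 of 25 in the 3′UTR. With 7 to 77 tags each, these readings rest on far fewer tags than the low-percentage sites. Whether a deletion carried by every tag comes from crosslinking was not tested. LTBP2, SMAD2 and ID2 were the 3 genes (7.32%) whose sites were all of the high kind, compared with 8.51% of protein-coding genes. At least 1 low-percentage 3′UTR site was present in 23 genes (56.1%), compared with 27.6%.

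**Figure D2:**
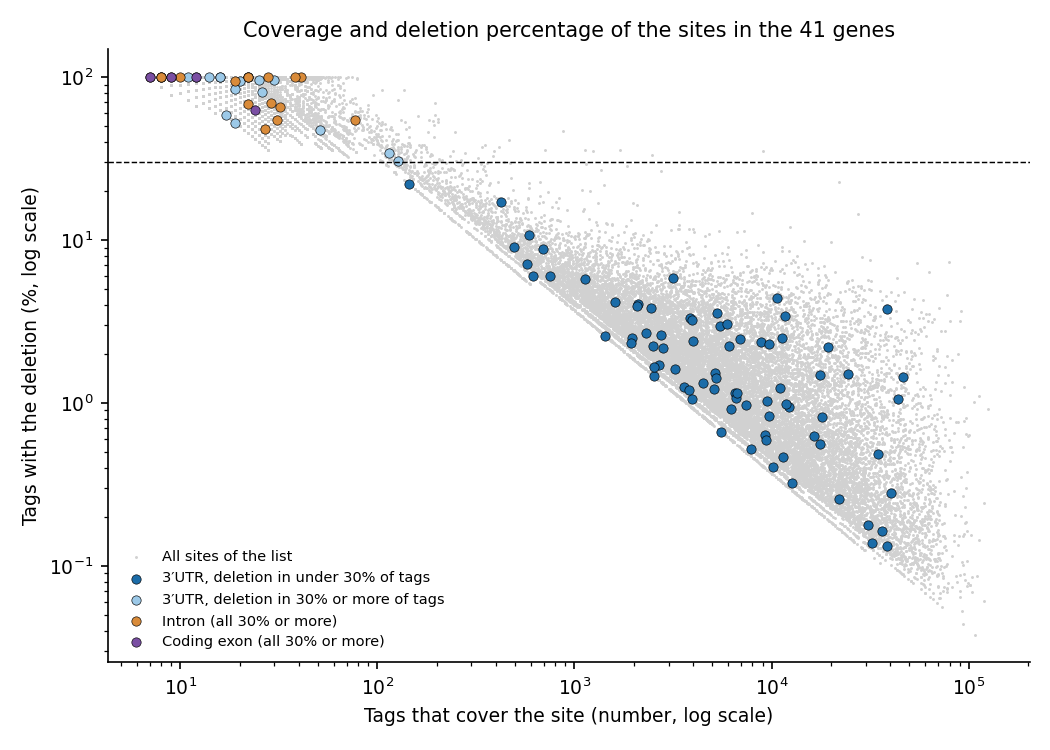
Tags that cover a site (x axis, log scale) against the percentage of tags with the deletion (y axis, log scale) for all sites of the list (grey) and for the 116 sites in the 41 genes (colours), with a dashed line at 30%. The intron and coding sites, with 7 to 77 tags, all lie above the line, and the low edge of the cloud follows the list's own minimum of 32 deletions for sites below the line.

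The ligand genes were bound unevenly. TGFB2, 1 of the TGF-β ligands, had 10 sites (chromosome 1, gene 218345336 to 218444619, plus strand), of which 9 were in the 3′UTR, whereas TGFB1 and INHBA, which encodes an activin subunit, had none. Of the 9, the 3 sites with the highest percentages had 22 of 22, 19 of 20 and 16 of 19 tags with the deletion, and an intron site had 8 of 8. A site with 32 of 144 tags (22.2%, 95% Wilson interval 16.2 to 29.7%) lay 2554 nt upstream of the annotated end. Another, with 37 of 1433 tags (2.58%, interval 1.88 to 3.54%), lay 2246 nt upstream of it. Below 30% no site of the list had fewer than 32 deletions. A lower percentage could therefore not have been listed at 144 tags.

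The strongest part of TGFB2 was a group of 4 sites within 32 nt, 633 to 664 nt before the annotated end. They had 170 of 6890 tags (2.47%, interval 2.13 to 2.86%), 41 of 7890 (0.520%), 41 of 12669 (0.324%) and 115 of 12226 (0.941%). The first of these had a higher percentage than the others, with an interval that does not overlap theirs. AATAAA was in the windows (25 nt on each side) of the other 3, at 1 position. These 4 sites also lie in TGFB2-OT1, a transcript annotated on the same strand within the TGFB2 3′UTR, and tags of the 2 transcripts cannot be told apart. No low-percentage site was within 100 nt of the annotated TGFB2 end.

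LTBP1, which anchors latent TGF-β in the extracellular matrix, had 6 sites, of which 4 low-percentage sites lay at 2 annotated ends. At the upstream end, sites 30, 21 and 8 nt before it had 102 of 16345 tags (0.624%), 99 of 17601 (0.562%) and 263 of 17604 (1.49%, interval 1.33 to 1.68%). At the downstream end a site 22 nt before it had 85 of 2109 tags (4.03%, interval 3.27 to 4.96%). More tags covered the upstream end, and the percentage was higher at the downstream end. The remaining LTBP1 sites had 12 of 12 tags in a coding exon and 41 of 41 in an intron.

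Of the 41 genes, TGFBR2 had the most sites, the site with the most deletions and the site with the most tags. TGFBR2 encodes the type II receptor for TGF-β (chromosome 3, 30606601 to 30694142, plus strand) and had 20 sites, 19 of them in the 3′UTR. Only 54 protein-coding genes, TGFBR2 included, had as many 3′UTR sites, and its strongest site ranked 61 in the list by deletions. Of the 19 sites, 17 formed 1 group of 137 nt from position 30693986 to 30694122, which ends 20 nt before the annotated end. The other 3 sites of the gene had 15 of 24 tags in a coding exon, and 39 of 114 and 21 of 26 tags farther upstream in the 3′UTR.

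Coverage in the TGFBR2 group rose from 3957 tags at the site 156 nt before the end to 46421 tags at 61 nt, and was 4469 tags at 31 nt and 10148 tags at 20 nt. The highest deletion percentage was not at the highest coverage. It was at position 30694072, 70 nt before the end, with 1446 of 38436 tags (3.76%, interval 3.58 to 3.96%). The next were 2.38% (211 of 8875 tags, interval 2.08 to 2.72%) at 112 nt and 2.21% (430 of 19424, interval 2.02 to 2.43%) at 94 nt, and these overlap each other but not the first.

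Sites with low percentages were interspersed among these. At 67 nt, 3 nt from the strongest site, 112 of 40177 tags (0.279%, interval 0.232 to 0.335%) carried the deletion, and at 51 nt 51 of 38520 did (0.132%, interval 0.101 to 0.174%). Between them, 667 of 46421 tags (1.44%) at 61 nt and 462 of 43853 (1.05%) at 58 nt had it. Upstream of the strongest site, 42 of 3957 tags (1.06%) carried a deletion at 156 nt, 147 of 18032 (0.815%) at 97 nt, 57 of 22013 (0.259%) at 91 nt, 368 of 24471 (interval 1.36 to 1.66%) at 88 nt and 60 of 36447 (0.165%) at 76 nt. Toward the end, 169 of 34619 (0.488%) did at 50 nt, 45 of 32410 (0.139%) at 43 nt, 55 of 30839 (0.178%) at 40 nt, 59 of 4469 (1.32%) at 31 nt and 41 of 10148 (0.404%) at 20 nt. The percentage thus alternated between neighbours a few bases apart. The highest values were at deleted T, but the sites at 43 nt (0.139%) and 20 nt (0.404%) also had a deleted T. The same tags can cover several of these sites, so the 17 values are not independent. AATAAA or ATTAAA was in the window of 14 of the 17 sites and the AUA pattern in that of 13, and none of the 13 held an AUA match apart from AATAAA.

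**Figure D3:**
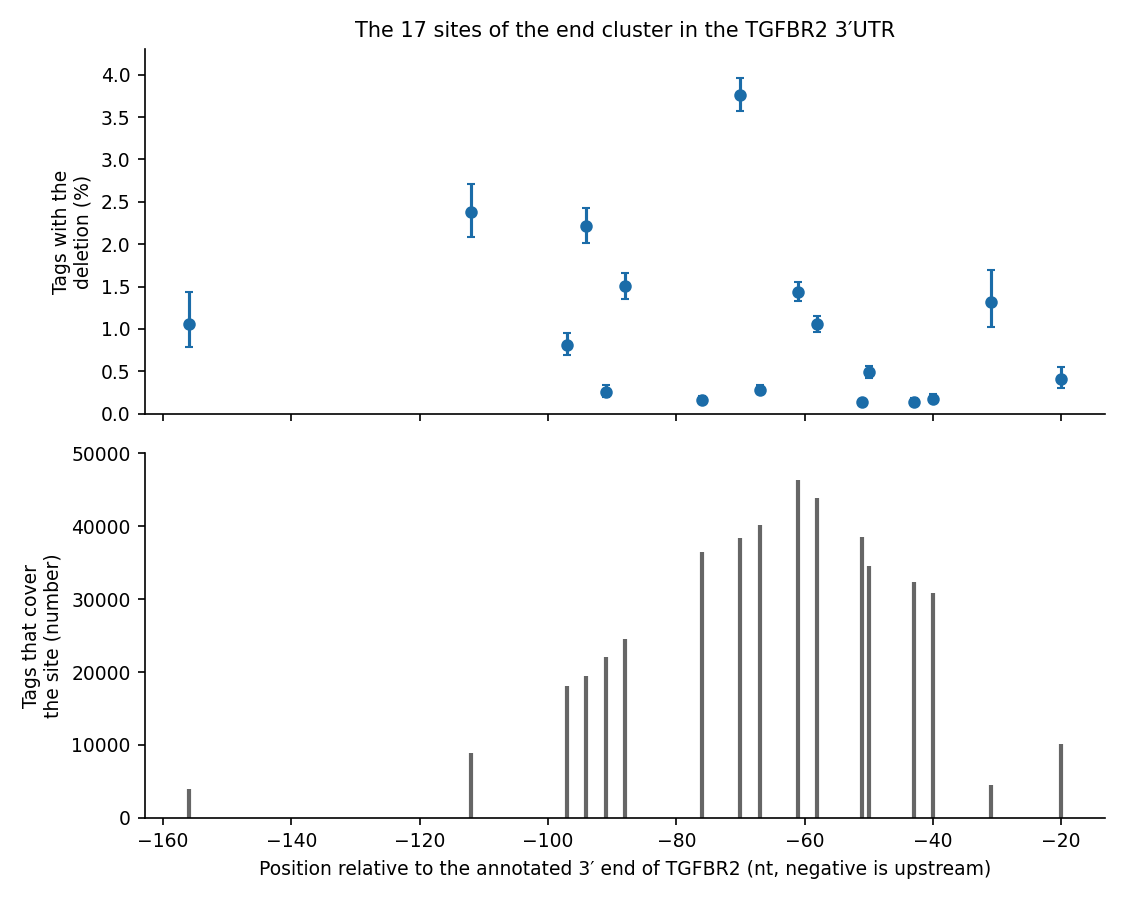
The 17 low-percentage sites near the end of the TGFBR2 transcript by their distance from the annotated 3′ end (x axis, nt), with the percentage of tags that carry the deletion and its 95% Wilson interval (top) and the number of covering tags (bottom). The percentage peaks at 3.76% 70 nt before the end, and coverage peaks at 46421 tags 61 nt before it.

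The BMP receptors carried fewer sites. BMPR2, the type II BMP receptor, had 4 sites, with 474 of 10694 tags (4.43%, interval 4.06 to 4.84%) with a deleted T 25 nt before the end of the transcript, and 53 of 11406 (0.465%, interval 0.355 to 0.607%) with a deleted A 3 nt farther on, at the first base of ATTAAA. Its other sites had 16 of 16 tags in the 3′UTR and 7 of 7 in a coding exon. BMPR1A, a type I BMP receptor, had 8 sites, of which 4 of similar size lay in 30 nt at an annotated end. They had 79 of 5147 (1.53%), 75 of 6500 (1.15%), 71 of 6636 (1.07%) and 57 of 6191 tags (0.921%), with intervals that overlap for each neighbouring pair and no poly(A) signal in any of the 4 windows. Another BMPR1A site, 2649 nt before the nearest annotated end, had 163 of 5486 tags (2.97%, interval 2.55 to 3.45%) and a deleted C, with AATAAA starting 12 nt upstream. The rest of its sites had 8 of 8 tags in the 3′UTR, and 18 of 19 and 15 of 22 in introns.

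TGFBR1, the type I TGF-β receptor, had 135 of 10969 tags (1.23%, interval 1.04 to 1.45%) at 21 nt and 45 of 496 (9.07%, interval 6.85 to 11.9%) at 665 nt before the same end, besides 10 of 17 and 12 of 12 tags at 3′UTR sites and 10 of 10 in an intron. The type I receptors ACVR1 and ACVR1B had 2 sites each, whereas the type II receptors ACVR2A and ACVR2B had none. In ACVR1 the sites had 37 of 613 tags (6.04%) and 49 of 1959 tags (2.50%), each within 10 nt of an annotated end of its own. In ACVR1B they had 65 of 1126 (5.77%) and 61 of 2812 tags (2.17%), 35 and 12 nt before 1 end. TGFBR3, the co-receptor betaglycan, had 37 of 5546 tags (0.667%) at 37 nt and 24 of 51 tags at 105 nt. BAMBI, a decoy receptor, had no site.

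Of the SMAD genes, SMAD5, a BMP-branch SMAD, had the most low-percentage sites. Its 5 sites lay within 34 nt, 20 to 53 nt before an annotated end, and all had a deleted T. They had 45 of 1927 (2.34%), 82 of 2075 (3.95%), 52 of 3238 (1.61%), 190 of 5292 (3.59%, interval 3.12 to 4.13%) and 181 of 5965 tags (3.03%, interval 2.63 to 3.50%). SMAD1, of the same branch, had 61 of 689 (8.85%, interval 6.95 to 11.2%) and 41 of 577 tags (7.11%, interval 5.28 to 9.50%), which overlap.

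SMAD3, which acts downstream of TGF-β and activin, had sites at 2 annotated ends, as LTBP1 had. At the upstream end 73 of 424 tags (17.2%, interval 13.9 to 21.1%) carried the deletion at 38 nt and 94 of 2454 (3.83%, interval 3.14 to 4.66%) at 6 nt. At the downstream end 74 of 5195 (1.42%, interval 1.14 to 1.78%) did at 12 nt. SMAD3 also had 29 of 30 and 11 of 11 tags at 3′UTR sites and 28 of 28 in an intron. SMAD4, the shared partner, had 67 of 1600 tags (4.19%) at 43 nt from an annotated end and 5308 nt from the end of its representative transcript, and 10 of 19 tags at a further site. The inhibitory SMAD6 and SMAD7 had no site.

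The 4 genes grouped as SMAD regulators (SMURF1, SMURF2, SKI and SKIL) were bound. SMURF2 had 2 groups of 3 sites. In the group 297 to 320 nt before an annotated end the sites had 223 of 9651 (2.31%, interval 2.03 to 2.63%), 81 of 9701 (0.835%) and 97 of 9499 tags (1.02%), and a run of 9 A lies in the genome within 50 nt after the strongest of them. In the group 18 to 35 nt before the downstream end they had 128 of 3871 (3.31%, interval 2.79 to 3.92%), 46 of 3815 (1.21%) and 45 of 3595 tags (1.25%). SMURF1 had 37 of 2527 tags (1.46%) at 28 nt and 17 of 31 tags in an intron. SMURF2 also had 4 intron sites of 8 to 27 tags, the most of any of the 41 genes.

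SKI and SKIL are related corepressors, and their sites differed in place. SKI had 6 low-percentage sites within 40 nt, all 111 to 150 nt before the annotated end, with 400 of 11694 tags (3.42%, interval 3.11 to 3.77%) at the strongest and 283 of 11235 (2.52%, interval 2.24 to 2.83%) at the next. The others had 116 of 11840 (0.980%), 72 of 7425 (0.970%), 59 of 9244 (0.638%) and 56 of 9391 tags (0.596%), and 2 sites far upstream had 16 of 16 and 14 of 14. None of the 6 windows held AATAAA or ATTAAA. The AUA pattern was in 4 of them, in the match printed above. SKIL had 128 of 3958 (3.23%, interval 2.73 to 3.83%) at 16 nt and 56 of 2507 tags (2.23%, interval 1.72 to 2.89%) at 51 nt from its end, with AATAAA 9 nt upstream of the former.

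Among transcription factors, ZEB1, a repressor of epithelial genes, had 62 of 2301 tags (2.69%, interval 2.11 to 3.44%) at 324 nt and 45 of 751 (5.99%, interval 4.51 to 7.92%) at 56 nt from different annotated ends. It also had 3 intron sites of 7 to 32 tags. SNAI2 (Slug) had 63 of 588 tags (10.7%, interval 8.46 to 13.5%) at 194 nt from its end, in a run of 8 T, and 22 of 22 tags at 387 nt. These were the only sites in the 9 genes, and neither their paralogues ZEB2 and SNAI1 nor TWIST1 or TWIST2 had any.

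The 3 ID genes, which encode inhibitors of basic helix-loop-helix factors and are classical BMP targets, had 1 site each. ID1 had 185 of 3174 tags (5.83%, interval 5.07 to 6.70%) at 33 nt, ID3 had 62 of 5079 (1.22%, interval 0.953 to 1.56%) at 13 nt, and ID2 had 39 of 127 (30.7%, interval 23.4 to 39.2%) at 168 nt. The 3 intervals do not overlap, but the coverage at ID2 was far lower than at the other genes. Below 30% the list has no site with fewer than 32 deletions. At 127 tags a percentage as low as those of ID1 and ID3 could therefore not have been listed, so the 3 percentages cannot be compared. In all 3 the deleted base was a T in a run of 4 to 7 T with a poly(A) signal in the window.

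TGFBI, a matrix protein induced by TGF-β, had 42 of 2536 (1.66%), 136 of 6070 (2.24%, interval 1.90 to 2.64%) and 77 of 6694 tags (1.15%, interval 0.921 to 1.44%) at 42, 24 and 19 nt from an annotated end. CDH11, a mesenchymal cadherin, had 46 of 2681 tags (1.72%) at 25 nt. It also had 96 of 4006 (2.40%) and 72 of 2747 tags (2.62%), 3069 and 3083 nt from the annotated end, with a run of 7 A in the genome within 50 nt after both. CDH2 (N-cadherin) had no site.

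Most of the low-percentage sites lay close to an annotated transcript end. In all, 55 of 78 (70.5%, interval 59.6 to 79.5%) were within 100 nt of one, against 72.6% of 18490 such sites in the whole list. They belonged to 20 of the 23 genes. In SKI, SNAI2 and TGFB2 every low-percentage site was farther than 100 nt. Of 18 high-percentage 3′UTR sites, 2 were within 100 nt (11.1%), against 20% in the list. Over all 96 3′UTR sites the median distance was 64 nt (95% binomial interval of the median 42 to 111 nt), against 38 nt in the list. Without TGFBR2, an alternative chosen after the data were seen, it was 53 nt (interval 36 to 141 nt), which includes the value of the list. For low-percentage 3′UTR sites alone it was 43 nt, against 32 nt in the list. RNA was captured by oligo(dT), and a run of at least 6 A in the genome within 50 nt after the site was present at 4 of the 55 low-percentage sites near an end (7.27%) and at 3 of the 23 farther away (13.0%), against 9.74 and 16.5% in the list. The part of capture in the place of the sites was not tested.

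**Figure D4:**
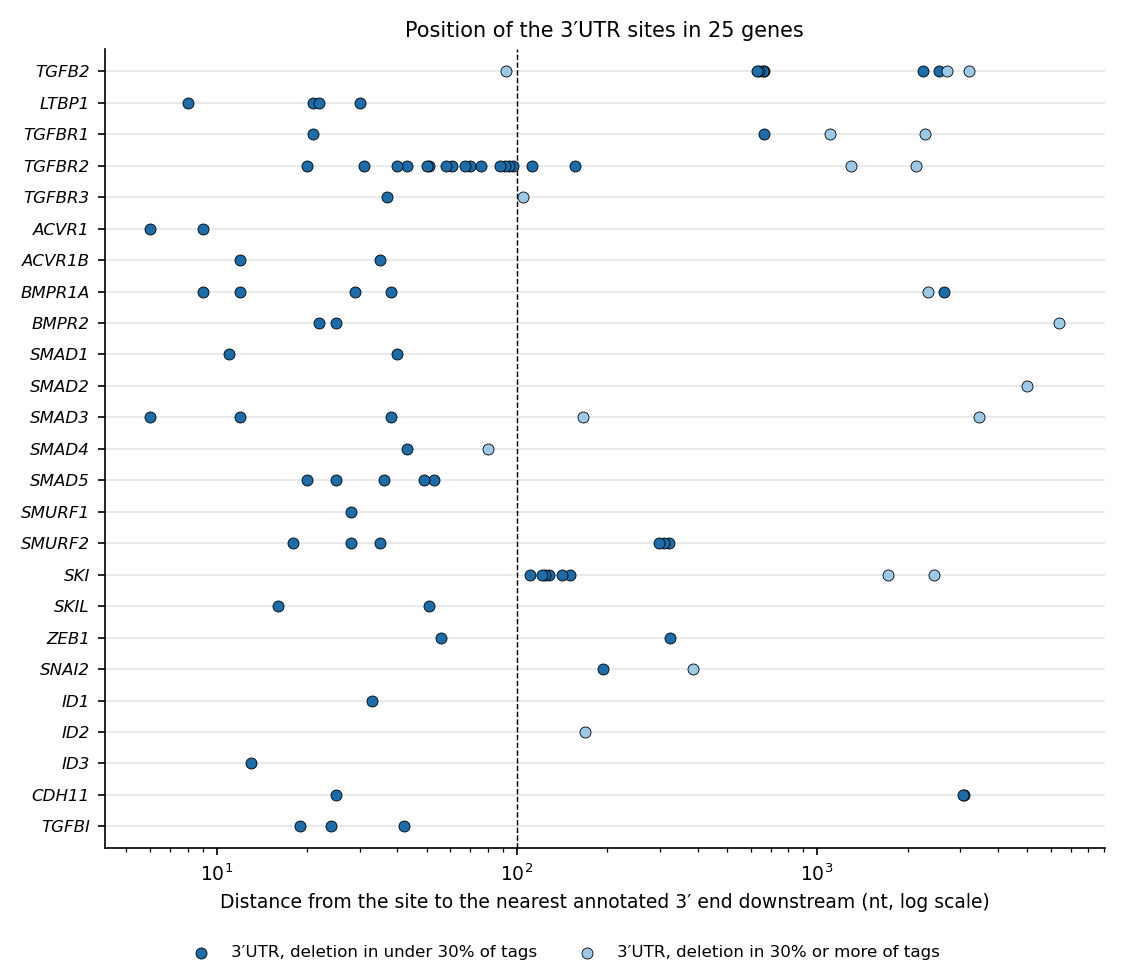
Distance (x axis, nt, log scale) between each 3′UTR site and the closest annotated transcript end after it in the 25 genes with such a site (y axis), with colours for sites under and over 30% deletions and a dashed line at 100 nt. In 20 genes at least 1 low-percentage site lies left of the line, and in SKI, SNAI2 and TGFB2 all lie right of it.

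A poly(A) signal was in the window of 55 of the 96 3′UTR sites (57.3%, interval 47.3 to 66.7%), compared with 65.4% of 21230 in the whole list. Only the transcript strand was searched. Within 100 nt of an end the share was 73.7% (42 of 57), against 73.9% in the list, and farther away it was 33.3% (13 of 39), against 49.0%. The signal was not on a fixed side of the deletion. At the 52 low-percentage sites with a signal, it started upstream at 24 and at or downstream of the deleted base at 28, from 18 nt before to 20 nt after.

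The AUA pattern was in the window of 42 of the 96 sites (43.8%, interval 34.3 to 53.7%), against 51.7% in the list. AATAAA with any base but C before it is itself a match, so the pattern overlaps the poly(A) signal. Matches free of AATAAA occurred at 7 sites (7.29%, interval 3.58 to 14.3%), against 15.5% in the list. These 7 were 4 in SKI and 1 each in TGFB2, ACVR1 and ACVR1B. T was the deleted base at 78 of the 116 sites (67.2%, interval 58.3 to 75.1%), against 63.2% in the list, followed by A at 21, C at 13 and G at 4. Neighbouring sites share windows and tags, so these intervals cover counting error only and are too narrow.

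Genes of the same pathway that were not among the 41 were read from lists of 127 genes. The share of all protein-coding genes with a 3′UTR site, 31.8%, is the background for these lists. Of 33 other SMAD partners and regulators, 24 had a 3′UTR site (72.7%), led by PMEPA1 (596 of 32873 tags, 1.81%), which sequesters SMADs, SP1 (578 of 7021, 8.23%) and the SMAD phosphatase PPM1A (357 of 6517, 5.48%). Of 28 other ligands, antagonists and latent-complex genes, 6 had one (21.4%), led by the ligand BMP4 (1595 of 49095 tags, 3.25%), the activin antagonist FST (683 of 15591, 4.38%) and FSTL1 (397 of 18835, 2.11%). Of 14 other receptors and partners, 6 had one (42.9%), with FKBP1A, which binds type I receptors, at 775 of 20907 tags (3.71%), STRAP at 246 of 7812 (3.15%) and RGMB at 213 of 13854 (1.54%).

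Of 15 other induced genes 7 had a 3′UTR site (46.7%), against 31.8% of all protein-coding genes. CCN1, a secreted matrix protein, had the most deletions (3572 of 77215 tags, 4.63%), followed by THBS1 (1188 of 95108, 1.25%) and CCN2 (844 of 37012, 2.28%). Of 17 other mesenchymal transcription factors 9 had one (52.9%), led by TEAD1 (552 of 8302 tags, 6.65%), HMGA2 (193 of 10049, 1.92%) and SOX9 (159 of 1424, 11.2%). Of 20 genes of epithelial identity 5 had one (25%), with CLDN4 (147 of 2848, 5.16%), KRT19 (115 of 3104, 3.70%) and KRT18 (76 of 2873, 2.65%) first, and CDH1 had no site.

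**Figure D5:**
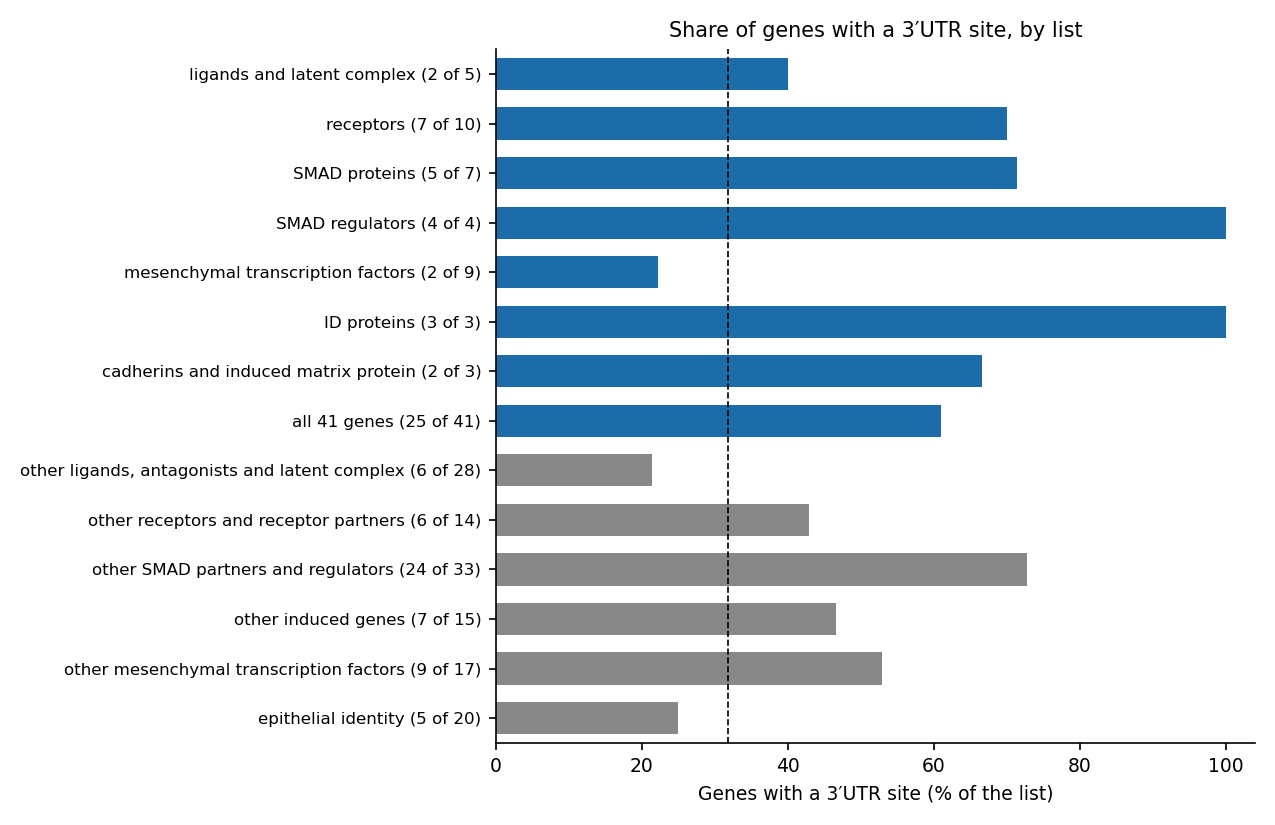
Percentage of genes with a 3′UTR site (x axis) in each role group of the 41 genes (blue) and in 6 lists of other genes (grey), with the counts in the labels and a dashed line at the 31.8% of all protein-coding genes. The 9 mesenchymal transcription factors, the other ligands and the epithelial genes lie to the left of the line. All other groups and lists lie to its right, among them the 17 other mesenchymal transcription factors.

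The labelled line was read against markers only as presence of bound RNA. All 7 markers of mesenchymal-like breast cancer lines (VIM, FN1, CD44, AXL, SPARC, CAV1 and MSN) had a 3′UTR site, against 31.8% of all protein-coding genes. Of the 20 epithelial genes, EPCAM, CLDN4, KRT8, KRT18 and KRT19 also had one, and the mesenchymal CDH2 had no site. These sites therefore do not establish the identity of the line.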

How the data were processed

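RBMS3 CLIP-seq was performed on MDA-MB-231 cells with FLAG-tagged RBMS3 in 2 replicates. The authors added molecular identifiers to the reads and used the CLIP Tool Kit to align them to hg38, reduce them to unique tags, pool both replicates and call sites from deletions, keeping those past their limits for false discovery rate and fold change. The aligner and tool versions are not given in the sources used here. The deposited values are counts per site: covering tags, and those among them with the deletion. No normalization was applied. Library totals were not analysed here, so depth is given per site.

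Each interval of the list is 21 nt and the deleted base was taken as its centre. Sites were placed on GENCODE release 44 (build hg38) by strand, in the order 3′UTR, 5′UTR, coding exon, other exon and intron, over all transcripts of a gene. Distances run to the nearest downstream 3′ end of a transcript with an annotated 3′UTR. Sites within 50 nt formed a group. Motif windows had 25 nt on each side (51 nt). Intervals are 95% Wilson intervals and cover counting error only. No statistical test was run, because 1 pooled list has no replicates or groups to compare. The genes and lists were chosen with earlier results of these data known. Every gene of the list is accounted for by role, each bound gene is given by its site count and strongest site, genes with at least 3 3′UTR sites are given site by site, and the 3 genes with the most deletions at a site are named per list of other genes. The placement code was run on simulated positions drawn from annotated 3′UTRs and returned them there. The same annotation served for both, so this does not test the placement of real sites, of introns or by strand. Alternatives changed the minimum of deletions, the deletion percentage, the site position, strand, annotation, window and motif. Scripts ran under Python 3.11.15 with matplotlib 3.10.9, samtools 1.23.1, scipy 1.17.1, pysam 0.24.0 and numpy 2.4.6. A list of markers of other cells is not reported here.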

Additional observations from a re-analysis of the deposited data

Results flagged for a closer look

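TGFB1 had no site on its own strand, but 9 sites lay inside the gene on the opposite strand. They are set apart here because the counts by strand did not use them. All 9 lie in the 3′UTR of HNRNPUL1, which overlaps TGFB1 on the other strand, and had 19 to 225 deletions. The strongest had 225 of 10896 tags (2.06%).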

How the results depend on the processing

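The number of bound genes stayed within 1.5 times of its value under all alternatives but that which kept sites with deletions in at least 10% of tags, which gave 17 bound genes, 12 with a 3′UTR site, 41 sites, a 3′UTR share of 51.2%, a median distance to the end of 1717 nt, a poly(A) signal in 19.0% of windows and the AUA pattern in 14.3%. With at least 50 deletions there were 59 sites in 20 genes, 100% of them in 3′UTRs, with a signal in 67.8% and the AUA pattern in 57.6% of windows, and with at least 20 deletions the 3′UTR share was 92.5%. With deletions in under 30% of tags the 3′UTR share was 100%. With 1 site per group of sites there were 71 sites, 71.8% of them in 3′UTRs, and the AUA pattern was in 33.3% of windows. The signal was in 72.9% of windows of 50 nt on each side and, as AATAAA alone, in 46.9%. The AUA pattern was in 62.5% of the wider windows and in 7.29% without matches that contain AATAAA. With the ends of all annotated transcripts, an alternative chosen after the data were seen, the median distance was 41 nt. In all, 21 of 65 values left the interval of the reported value, or for counts differed by over 1.5 times, and 44 did not. The latter include all values without TGFBR2, without sites that also lie in another gene on the strand, both also chosen after the data were seen, with any overlap of the interval, with strand ignored (which adds TGFB1 to the bound genes, 27 in all) and with 1 representative transcript. Deleted T stayed between 61.0 and 70.8%.

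No paired analysis was possible because the list pools both replicates of 1 group, and for the same reason no replicate was left out in turn. Depth limits what the list can hold: below 30% it has no site with fewer than 32 deletions or 110 tags, and a gene without a site is not shown to lack RBMS3.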
